A study of Mus musculus with 18 samples.

Results

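The small noncoding RNA genes of the mouse heart were examined here, that is the rows of the count table whose symbol starts with Snora, Snord, Scarna or Rnu followed by a digit, together with Rmrp, Rpph1 and Terc. The rule found 127 of the 23457 genes of the table. Changes between groups were followed in the 25 of them with a mean of at least 10 counts over all hearts, so these genes were chosen by their mean count over all groups, and that count is a description only. The interest in Rmrp and Rnu12 also came from earlier results of these data. The members just inside that limit were Snora34 and Snora5c, with mean counts of 10.5 and 10.4, and those just outside were Snora30 and Snora65, with 9.0 each. The 7SK RNA gene is not analysed here.

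The study used male C57BL/6 mice that had received an adeno-associated virus of serotype rAAV6 through the tail vein and were 17 weeks old at collection. The virus carried FLAG-tagged PLCβ1b, FLAG-tagged PLCβ1a, a splice variant described as inactive in the heart, or, in the blank control, a promoter with no protein product, with 6 hearts in each group. Total RNA depleted of ribosomal RNA was sequenced. The study asked whether low contractility by itself, reported with PLCβ1b but not with PLCβ1a, leads to a compensating change in transcripts. The labels name both ventricles as the tissue and the methods name the left ventricle, and the 7 ventricular cardiomyocyte markers checked were all counted, with a summed level between 59989 and 65508 CPM of nuclear counts (CPM, counts per 1000000 counts). Of 5 erythrocyte markers 3 were in the table and 2 of these at 0, and the median of their sum was 26.9 CPM of nuclear counts with the blank vector, 42.7 with PLCβ1a and 33.7 with PLCβ1b, over a range of 17.6 to 50.8, whose part in the results was not tested. Depth ran from 13246339 to 24155465 counts per heart, of which 67.1 to 71.9% were mitochondrial, and 3908354 to 7591558 fell on nuclear genes. Plcb1, whose counts cannot separate the variants, checked the vector. Its level ranged from 5.43 to 6.89 CPM with the blank vector, from 17.8 to 29.3 with PLCβ1a and from 23.2 to 70.0 with PLCβ1b, where CPM, here and for all members, is taken over all counts after TMM scaling. It was called in both vector groups against blank (FDR 8.24e-05 and 0.0299, edgeR's quasi-likelihood test). Between PLCβ1b and PLCβ1a hearts its log2 fold change was 1.09 (FDR 0.801, same test). In that comparison the variant and the level of Plcb1 thus cannot be told apart.

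Small noncoding RNAs mostly work as the RNA part of a particle with proteins. Box C/D and box H/ACA snoRNAs base-pair with ribosomal RNA precursors in the nucleolus and guide methylation of the sugar and conversion of uridine to pseudouridine, and most are cut out of introns of a host gene. Cajal body RNAs (Scarna) guide the same reactions on the spliceosomal RNAs. Rpph1 is the catalytic RNA of RNase P, which trims the leader of transfer RNA precursors, and Rmrp is the RNA of the related RNase MRP, which cuts the ribosomal RNA precursor. Rnu12 and Rnu11 encode the U12 and U11 RNAs of the minor spliceosome, which removes a small class of introns, and Rnu12 pairs with the branch site of those introns.

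The sequences of 7 members are given because the group comparisons below turn on them or on a pair of related genes. They are the GENCODE M21 transcripts on GRCm38, the build also called mm10, written as DNA from 5′ to 3′ in lower case. In Rmrp (chr4:43492788-43493058, minus strand) and Rpph1 (chr14:50807449-50807767, minus strand) the capitals mark GGAANGTC, a stretch that both RNAs hold (Rpph1 is shown from base 1 to base 200) and that was found in 0.742% of the 2963 GENCODE small RNA transcripts searched on their own strand.
Rmrp: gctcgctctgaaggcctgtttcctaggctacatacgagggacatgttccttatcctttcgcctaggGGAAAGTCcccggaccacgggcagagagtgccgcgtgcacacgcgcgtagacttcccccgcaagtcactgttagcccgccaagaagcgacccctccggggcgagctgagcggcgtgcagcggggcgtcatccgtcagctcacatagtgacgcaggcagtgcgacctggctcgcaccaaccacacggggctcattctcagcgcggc
Rpph1: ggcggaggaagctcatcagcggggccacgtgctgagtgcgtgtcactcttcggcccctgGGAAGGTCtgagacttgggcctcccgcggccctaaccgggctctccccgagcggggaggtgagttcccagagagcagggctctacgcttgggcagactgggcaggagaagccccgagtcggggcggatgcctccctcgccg
The pair is otherwise diverged, with 47.9% identical columns over the whole RNAs in a global alignment of 326 columns.

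In Rnu12 (chr15:83149644-83149794, plus strand) the first capitals, AGTAAGGAA, mark the stretch that pairs with the intron branch site and the second, AATTTTTGA, the site on which the ring of Sm proteins assembles. In Rnu11 (chr4:132270080-132270213, minus strand) the capitals AAGGG mark bases near the 5′ end that pair with the intron's 5′ splice site. The shares of the searched transcripts that hold these letters were 0.236, 0.371 and 6.45%.
Rnu12: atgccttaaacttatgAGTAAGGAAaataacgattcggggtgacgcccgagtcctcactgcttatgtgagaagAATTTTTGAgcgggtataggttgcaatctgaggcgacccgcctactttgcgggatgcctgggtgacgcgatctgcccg
Rnu11: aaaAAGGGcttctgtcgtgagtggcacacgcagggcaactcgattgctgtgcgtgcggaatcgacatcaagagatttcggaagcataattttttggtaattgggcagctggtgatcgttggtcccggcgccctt

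Snora7a (chr6:115807975-115808114, minus strand) shows the H/ACA form, with a hinge box of the form ANANNA and an ACA box 3 bases before the end in capitals. Snord15a (chr7:99482785-99482932, minus strand) and Snord15b (chr7:99479563-99479707, minus strand) show the C/D form, with the C box TGATGA near the start and the D box CTGA near the end in capitals. The letters of the hinge box occurred somewhere in 93.2% of the searched transcripts and those of the ACA box in 93.4%. The C box letters occurred in 14.8% and the D box letters in 57.7%, so a match to letters this short is a weak description.
Snora7a: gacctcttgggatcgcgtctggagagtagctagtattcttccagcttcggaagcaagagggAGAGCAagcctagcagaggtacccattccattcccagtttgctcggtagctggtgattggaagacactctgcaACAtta
Snord15a: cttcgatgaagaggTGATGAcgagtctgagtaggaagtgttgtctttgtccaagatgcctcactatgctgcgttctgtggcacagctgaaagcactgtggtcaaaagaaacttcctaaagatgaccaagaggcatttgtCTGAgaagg
Snord15b: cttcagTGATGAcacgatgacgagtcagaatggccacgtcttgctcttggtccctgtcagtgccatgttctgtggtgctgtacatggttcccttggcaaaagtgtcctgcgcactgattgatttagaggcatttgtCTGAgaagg
Both Snord15 genes lie in introns of Rps3, and their sequences were identical at 62.0% of aligned columns.

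Rpph1 and Rmrp carried most of the signal. Of 369977 counts on the 127 genes over 18 hearts, Rpph1 took 58.3% and Rmrp 28.7%, and the other 125 genes shared the rest, 48070 counts. Per kilobase of the annotated gene the mean count was 36860 for Rpph1 and 21470 for Rmrp, followed by Snora74a with 4561, Scarna10 with 2678, Rnu12 with 2060 and Scarna2 with 2007. The deposited Scarna10 and Scarna2 genes are only 71 and 61 nt long where GENCODE gives 325 and 414 nt, so their per-kilobase levels rest on short fragments of the transcripts.

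The guide RNAs had few counts. Of the 74 Snord genes 5 reached a mean of 10 counts, of the 36 Snora genes 11, of the 9 Scarna genes 5, and of the 5 Rnu genes only Rnu12 and Rnu11. Of these 5 Snord genes, Snord17, Snord15a, Snord15b and Snord22 are annotated at 221, 148, 145 and 126 nt, and Snord2 at 68 nt. Rpph1 and Rmrp are annotated at 325 and 275 nt. How well the libraries recovered RNAs of different length was not tested. The counts thus do not rank the abundance of these classes in the heart. Altogether 13 genes had no count in any heart, 34 had a mean under 1 and 55 a mean from 1 to 10. All 13 share exon positions with another gene on the same strand, where the counting mode sets reads over both aside, and 6 of them had an FPKM above 0 in some heart, so their count of 0 gives no level. Rnu6, the gene of the U6 RNA of the major spliceosome, is listed as a fragment of 27 nt with a mean of 0.167 counts, and Terc, the RNA template of telomerase, had a mean of 2.56 counts.

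The share of nuclear counts that fell on all 127 genes was 0.310, 0.361 and 0.425% (lowest, median, highest) in blank hearts, 0.306, 0.332 and 0.349% in PLCβ1a hearts and 0.352, 0.385 and 0.461% in PLCβ1b hearts. The 6 PLCβ1b hearts lay above every PLCβ1a heart and overlapped the blank hearts. The highest share, in PLCβ1b heart 4, had a Wilson 95% interval of 0.456 to 0.466%, which covers counting error only. The mean share was 0.359 ± 0.0406% (SD, n = 6) with the blank vector, 0.330 ± 0.0139% with PLCβ1a and 0.395 ± 0.0481% with PLCβ1b, and without Rpph1 it was 0.143 ± 0.0206, 0.131 ± 0.0127 and 0.177 ± 0.0292%. Relative to blank the mean share with PLCβ1b was 1.10 as counts but 0.796 as summed FPKM, the opposite direction. These sums are a description, since they run over genes chosen with results known, and in whole tissue fewer cells of a type and less RNA per cell cannot be told apart.

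**Figure D1:**
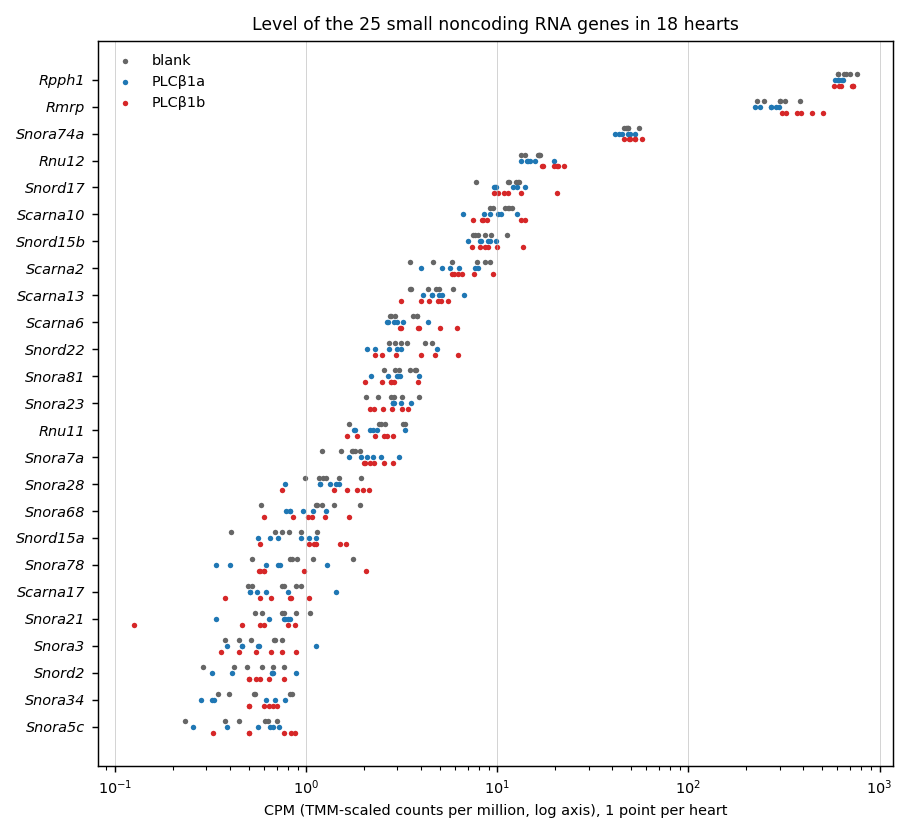
Level of each of the 25 genes with a mean of at least 10 counts, in TMM-scaled CPM on a log axis, with 1 point per heart and groups in grey (blank), blue (PLCβ1a) and red (PLCβ1b). Rpph1 and Rmrp stand far above the other genes, and the scatter between hearts widens towards the genes with the fewest counts.

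Members with few reads varied more between hearts, with exceptions. Across the 18 hearts the coefficient of variation of CPM was lowest for Snora74a (8.18%) and Rpph1 (8.62%) and highest for Snora78 (53.1%), with a median of 26.2% over the 25 genes. Counting error alone at the mean count would give 3.33% for Snora74a and 0.914% for Rpph1. Rmrp varied by 23.8% although counting error would give 1.30%. The RNAs of the sister enzymes thus ranged from 223 to 504 CPM for Rmrp and from 578 to 764 CPM for Rpph1.

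No member passed the threshold in PLCβ1b against blank hearts, at an FDR below 0.1 over all 12281 genes tested (edgeR's quasi-likelihood test with Benjamini-Hochberg adjustment), where 0.0977% of all genes were called. At an unadjusted p under 0.05 there were 5 of 25 members, Rnu12, Snora7a, Rmrp, Snord15a and Scarna6, with higher levels in PLCβ1b hearts in each case and no member lower, against 3.94% of all genes higher and 3.47% lower. In that comparison 17 of the 25 had a fold change above 0 and 8 below, where 49.6% of all genes were above, with a median log2 fold change of 0.07 beside 0.00 for all genes tested. DESeq2 and edgeR's exact test each called 1 member, Rnu12, and each had 5 members at an unadjusted p under 0.05, and limma on log2 FPKM called Rnu12 and had 3. Of all genes, DESeq2 called 0.195% and had 5.52% at that p, the exact test 0.147 and 5.63%, and limma 0.0613 and 6.38% of its 9782. In limma's fit 10 of the 22 members tested were above 0, with a median of -0.01, where 38.9% of all genes were above, with a median of -0.02.

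Rnu12 had the lowest FDR of the members in this comparison. Its level was 13.3, 16.4 and 16.7 CPM (lowest, median, highest) in blank hearts, 13.2, 14.6 and 19.7 CPM in PLCβ1a hearts, and 17.2, 20.1 and 22.3 CPM in PLCβ1b hearts. All 6 PLCβ1b hearts were above all 6 blank hearts, as in 0.269% of all genes (0.212% were below in the same way), while among the PLCβ1a hearts only heart 14 reached the PLCβ1b range. The log2 fold change of PLCβ1b against blank was 0.35 (SE 0.08, FDR 0.163), and the PLCβ1b mean was 19.6 ± 2.05 CPM (SD, n = 6). An exact two-sided permutation test over the hearts gave the smallest p it can give, 0.0022, and 0.451 when adjusted over all genes.

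The call on Rnu12 turned on the setting. Its FDR ran from 0.0286 to 0.365 over the alternatives, with an estimated log2 fold change from 0.24 to 0.38 and above 0 in each. It was below 0.1 when PLCβ1a heart 14 (0.0286), PLCβ1b heart 8 (0.0888) or PLCβ1b heart 10 (0.0976) was left out, with DESeq2 (0.0646), with edgeR's exact test (0.0639), with only the compared groups fitted (0.0755), with no filter on low counts (0.0744) and with limma on FPKM (0.0987 and 0.0914 with 1 and 0.1 added). GENCODE lists 3 other genes of at least 90% identity to Rnu12 over at least 80% of its length, so the share of reads that could be placed on it alone is uncertain.

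Rnu12 also moved with the mitochondrial percent of a heart's counts. That percent ran from 67.8 to 70.3 with the blank vector, 67.1 to 70.5 with PLCβ1a and 68.7 to 71.9 with PLCβ1b. Over the 18 hearts Pearson's r between it and log2 CPM of Rnu12 was 0.78 (permutation p = 2e-04, 0.0042 adjusted over 20 relations) and Spearman's rho 0.78 (p = 3e-04, adjusted 0.006), and r was 0.76 without the 2 hearts farthest from the median percent. The 18 hearts were permuted without regard to group, and both the percent and Rnu12 had their highest group mean with PLCβ1b. These p values thus include the difference between groups. The 20 relations cover only Rnu12 and Rmrp, both of interest from earlier results of these data. Within groups of 6 hearts r was 0.61 for blank, 0.84 for PLCβ1a and 0.65 for PLCβ1b (exact permutation p = 0.183, 0.0972 and 0.147).

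With mitochondrial genes left out of the counts, the log2 fold change of Rnu12 in PLCβ1b against blank hearts was 0.35 (FDR 0.151, edgeR). With the mitochondrial percent as a covariate, a fit added after seeing the data, it was 0.24 (SE 0.07, FDR 0.213). The gene whose log2 CPM was most like that of Rnu12 over the 18 hearts was mt-Rnr2 (r = 0.76), the large ribosomal RNA of mitochondria. Next came Fbxl5 (0.75) and Lmo2 (0.74). At a mean of 556255 CPM mt-Rnr2 held most of the mitochondrial counts, so its r largely repeats that of the mitochondrial percent. All these points share the libraries and their scaling, and the part of the mitochondrial percent in the difference of Rnu12 between groups was not tested beyond these fits.

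**Figure D2:**
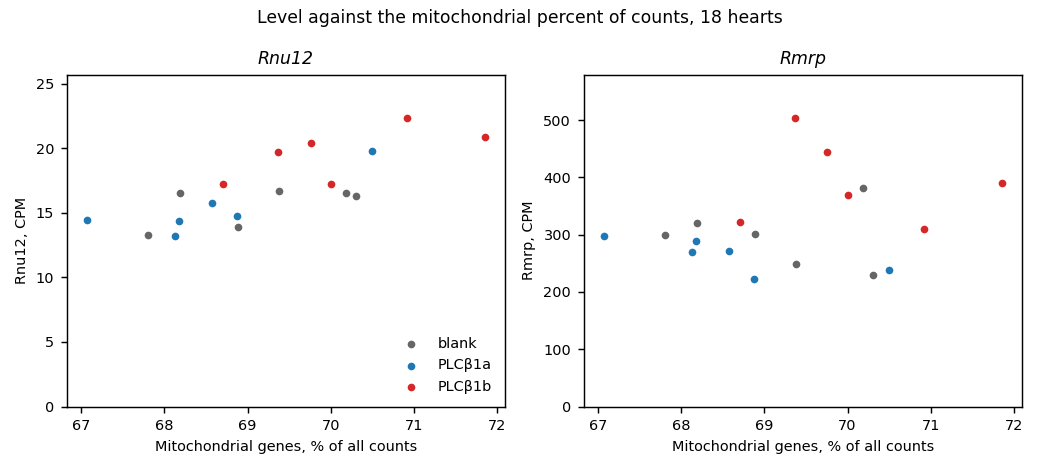
Level of Rnu12 (left) and Rmrp (right) in CPM against the mitochondrial percent of all counts, with 1 point per heart in grey (blank), blue (PLCβ1a) and red (PLCβ1b). Rnu12 climbs with the percent across the 18 hearts (r = 0.78), with the highest PLCβ1a point, heart 14, also highest in mitochondrial percent of its group, and for Rmrp r is 0.22.

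Rmrp was highest in PLCβ1b hearts without passing the test. Its level was 230, 300.3 and 382 CPM (lowest, median, highest) in blank hearts, 223, 270.4 and 297 CPM in PLCβ1a hearts, and 310.0, 380.0 and 504 CPM in PLCβ1b hearts. The PLCβ1b hearts did not overlap the PLCβ1a hearts, as in 0.0814% of all genes. Of the PLCβ1b hearts 3 lay above every blank heart, a count whose share over all genes was not computed. Rmrp had a log2 fold change of 0.39 against blank (SE 0.14, FDR 0.525) and 0.56 against PLCβ1a hearts (SE 0.14, FDR 0.801, edgeR).

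The 2 highest values of Rmrp, 504 and 444 CPM, came from PLCβ1b hearts 4 and 6. Without heart 4 the log2 fold change against blank was 0.31, and over the 18 leave-one-out fits it ran from 0.31 to 0.48. The FDR of Rmrp against PLCβ1a hearts was 0.111 with quasi-likelihood estimation that was not robust, the lowest of any setting. Within the 6 PLCβ1b hearts log2 CPM of Rmrp had a Pearson's r of 0.77 with that of Plcb1 (exact permutation p = 0.0667, adjusted 0.467) and a Spearman's rho of 0.71 (p = 0.136, adjusted 0.544), and r fell to 0.49 without the 2 hearts farthest from the median. Within the 6 PLCβ1a hearts r was 0.16 (exact permutation p = 0.836), and -0.82 without the 2 hearts farthest from their median. Plcb1 ran only from 17.8 to 29.3 CPM in PLCβ1a hearts, against 23.2 to 70.0 CPM in PLCβ1b hearts. Whether the relation differs between these groups was not tested. The genes whose log2 CPM was most like that of Rmrp over 18 hearts were Pafah2, Hdac5 and Arf5, with r of 0.79, 0.78 and 0.78.

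Rpph1, the partner of Rmrp in structure and proteins, had nearly the same mean level with PLCβ1b as with the blank vector. It was 604, 660 and 764 CPM (lowest, median, highest) in blank hearts, 584, 612 and 647 CPM with PLCβ1a and 578, 674 and 728 CPM with PLCβ1b, and all groups overlapped. The log2 fold change of PLCβ1b against blank was 0.0004 (SE 0.06), and that of PLCβ1a against blank -0.11 (SE 0.06, FDR 0.646).

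Snora7a had the lowest FDR of the members when both PLC groups were set against blank. This box H/ACA snoRNA, hosted in an intron of the ribosomal protein gene Rpl32, was at 1.21, 1.74 and 1.92 CPM (lowest, median, highest) in blank hearts, 1.68, 2.16 and 3.06 CPM in PLCβ1a hearts and 2.01, 2.20 and 2.83 CPM in PLCβ1b hearts. These levels rest on 21 to 76 counts per heart. All PLCβ1b hearts were above every blank heart, as in 0.269% of all genes (0.212% were below in the same way). So were 5 of 6 PLCβ1a hearts, a count whose share over all genes was not computed. The log2 fold change was 0.49 in PLCβ1b (SE 0.15, FDR 0.353), 0.46 in PLCβ1a (SE 0.15, FDR 0.317) and 0.47 for both groups together (SE 0.13, FDR 0.192, edgeR). The 2 groups share the blank hearts, and against each other they differed by 0.03 (SE 0.14). Rpl32 itself had log2 fold changes of -0.10 and -0.03 in PLCβ1b and PLCβ1a hearts.

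**Figure D3:**
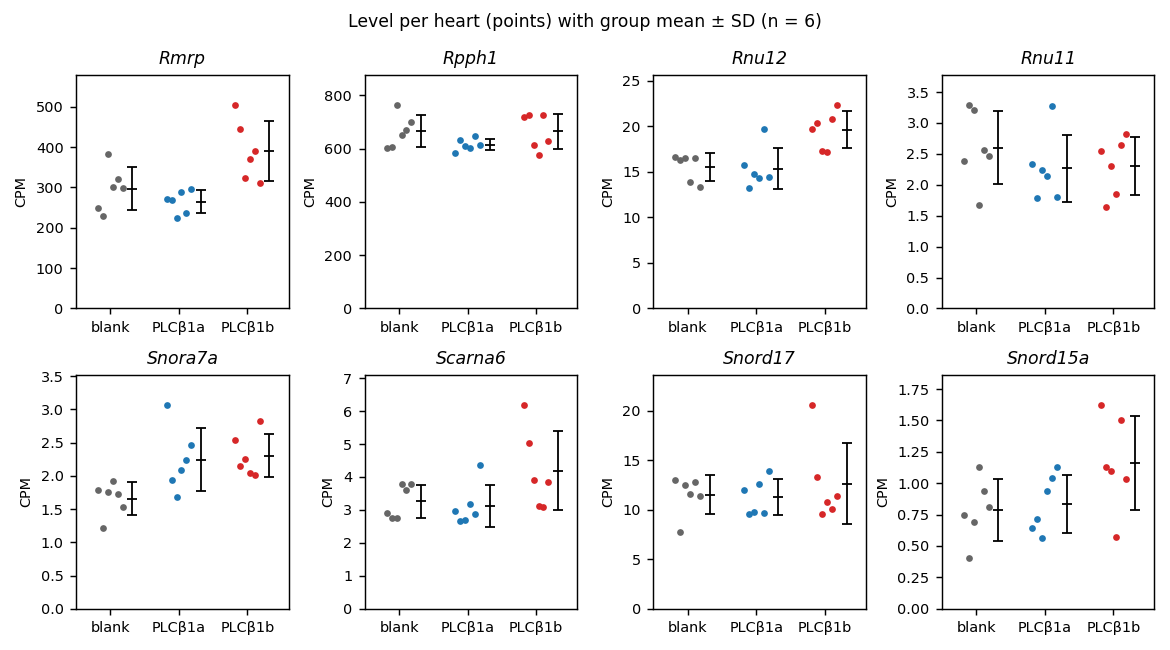
Level of 8 members in each heart (points, CPM from 0) with the group mean and SD (n = 6) beside them, in grey (blank), blue (PLCβ1a) and red (PLCβ1b). The PLCβ1b points of Rnu12 and Snora7a lie above all blank points, those of Rmrp above all PLCβ1a points, and Rpph1, Rnu11 and Snord17 overlap in every pair of groups.

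Scarna6 and Snord15a were the other members at an unadjusted p under 0.05 in PLCβ1b against blank hearts. Scarna6, a Cajal body RNA in an intron of the autophagy gene Atg16l1, was at 2.75, 3.26 and 3.79 CPM in blank hearts (lowest, median, highest), at 2.65, 2.93 and 4.36 CPM with PLCβ1a and at 3.08, 3.88 and 6.18 CPM with PLCβ1b. PLCβ1b heart 4 was the highest of all. In 4 PLCβ1b hearts the level lay above every blank heart, a count whose share over all genes was not computed. An exact permutation test of PLCβ1b against blank hearts gave p = 0.117. The log2 fold change of Scarna6 was 0.36 against blank (SE 0.16, FDR 0.606) and 0.45 against PLCβ1a hearts (SE 0.16, FDR 1), and without PLCβ1b heart 4 the latter was 0.29. With the mitochondrial percent as a covariate Scarna6 had an FDR below 0.1 in both comparisons, and its log2 fold change against PLCβ1a hearts was then 0.75 (FDR 0.0865). That fit called 0.342% of all genes against blank and 0.0326% against PLCβ1a hearts.

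Snord15a was at 0.404, 0.778 and 1.13 CPM in blank hearts and 0.574, 1.11 and 1.62 CPM in PLCβ1b hearts, on 7 to 37 counts per heart, and PLCβ1b heart 4 was again highest. This gave a log2 fold change of 0.55 (SE 0.23, FDR 0.6). Snord15b, its neighbour in Rps3, had a difference of 0.12 (SE 0.14), and Rps3 itself one of -0.09, and the difference between the pair was not tested.

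In PLCβ1a against blank hearts none of the 25 members was called, where 0.138% of all genes were, and only Snora7a, higher in PLCβ1a hearts, had an unadjusted p under 0.05 in edgeR's quasi-likelihood test, DESeq2, edgeR's exact test and limma, against 4.42% of all genes higher and 4.16% lower in the first. In either direction the share of all genes at that p was 6.93% in DESeq2, 7.23% in the exact test and 7% in limma, which called 0.269, 0.163 and 0.0613%. Fold changes were above 0 for 6 members and below 0 for 19, where 49.4% of all genes were above, with a median log2 value of -0.08. DESeq2 gave no adjusted p for 18 of the 25. The lowest p values among those below 0 belonged to Rpph1 (-0.11), Snora68 (-0.32, SE 0.23) and Rnu11 (-0.21, SE 0.16), the U11 RNA of the minor spliceosome. Rnu12, whose product works in the same particle, had -0.02 (SE 0.08). Scarna13 and Snord2 followed Snora7a on the higher side with 0.16 (SE 0.13) and 0.26 (SE 0.26).

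Directly between PLCβ1b and PLCβ1a hearts 0% of all genes were called by edgeR's quasi-likelihood test, members included. At an unadjusted p under 0.05 there were 5 members, Rnu12, Rmrp, Scarna6, Snora74a and Snord15a, each higher in PLCβ1b hearts, against 2.24% of all genes higher and 2.18% lower. DESeq2 had 4 such members, edgeR's exact test 5 and limma 3, and of these tools limma alone called 1, Rnu12. Of all genes 3, 3.4 and 3.08% had such a p in these tools, and 0.00814, 0.00814 and 0.0102%, 1 gene in each, were called. Rnu12 had a log2 fold change of 0.36 (SE 0.08, FDR 0.801), which was 0.44 with an FDR of 0.00818 without PLCβ1a heart 14 and 0.20 with an FDR of 0.513 with the mitochondrial percent as a covariate. Snora74a, the snoRNA with the highest mean count, was at 41.4, 46.4 and 52.4 CPM in PLCβ1a and 46.2, 51.0 and 57.0 CPM in PLCβ1b hearts. The log2 difference was 0.14 (SE 0.05). Below 0 the lowest p values were those of Snora23 (-0.16, SE 0.14), Scarna13 (-0.12, SE 0.13) and Snora21 (-0.24, SE 0.28).

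Of the 25 members 20 had a fold change above 0 in that comparison, where 50.5% of all genes did, with a median log2 value of 0.15 beside 0.00 for all genes. Both minor spliceosome RNAs, 4 of 5 box C/D genes, 8 of 11 box H/ACA genes and 4 of 5 Cajal body genes were among the 20. The members are not independent of each other, since they share each heart's library, and PLCβ1b heart 4 alone held the highest value of its group for 13 of the 25.

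With both PLC groups set against blank, 0 of 25 members were called by edgeR's quasi-likelihood test, where 0.326% of all genes were. DESeq2 and limma also called 0, but DESeq2 gave no adjusted p for 8 of the 25 and limma tested 22. At an unadjusted p under 0.05 were Snora7a and Rnu12 in edgeR's test, 2 members in DESeq2 and 1 in limma. In edgeR's test 9.25% of all genes had such a p, 4.63% in each direction. DESeq2 had 7.34% of all genes at that p and called 0.448%, and limma 8.07 and 0.0613%. Fold changes were above 0 in 12 and below 0 in 13, where 49.3% of all genes were above. No member had all 12 PLC hearts above or below every blank heart, as 0.0407 and 0.0244% of all genes did. Rnu12 had a log2 fold change of 0.16 (SE 0.07, FDR 0.485), and Rnu11 one of -0.18 (SE 0.14). Snord15a (0.29), Snora68 (-0.24) and Snora81 (-0.14) completed the lowest p values in each direction.

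**Figure D4:**
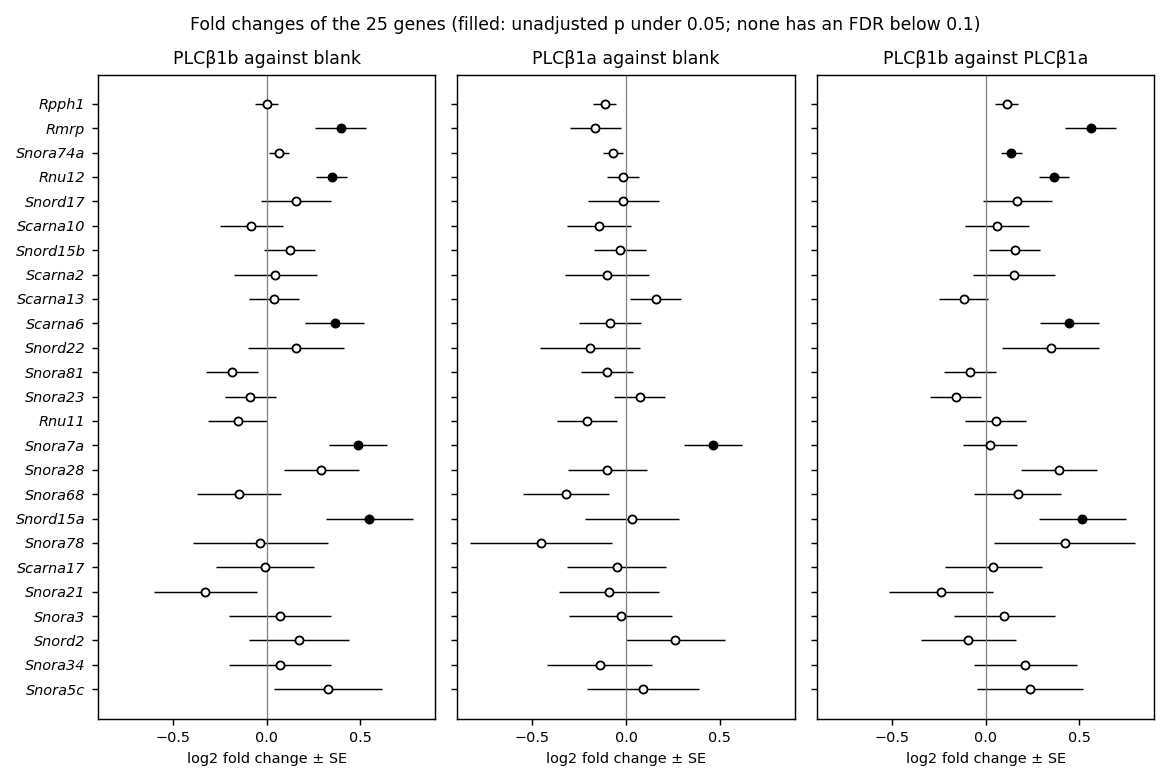
Log2 fold change with its standard error for the 25 genes in PLCβ1b against blank, PLCβ1a against blank and PLCβ1b against PLCβ1a hearts, with genes in order of mean count and filled points at an unadjusted p under 0.05. The numbers of points above 0 are 17, 6 and 20, error bars widen towards the bottom where counts are low, and no gene has an FDR below 0.1.

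The groups overlapped for the other Cajal body RNAs. Scarna10 had medians of 11.1 CPM with the blank vector, 9.65 with PLCβ1a and 8.60 with PLCβ1b, and the hearts ran from 6.64 to 14.01 CPM. Scarna2 was at 3.51 to 9.18, 3.98 to 7.90 and 5.76 to 9.54 CPM, and Scarna13 at 3.50 to 5.89, 4.07 to 6.72 and 3.12 to 5.55 CPM. Scarna17, on 6 to 20 counts per heart, was at 0.494 to 0.934, 0.505 to 1.44 and 0.377 to 1.03 CPM. Scarna13 shares an exon position with Mir3069 on the same strand, and reads over both are set aside by the counting mode used.

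Among the box C/D genes Snord17, in an intron of Snx5, had medians of 10.9 CPM with PLCβ1a and 11.1 with PLCβ1b and reached 20.5 CPM in PLCβ1b heart 4, with a log2 fold change of PLCβ1b against blank of 0.15 (SE 0.19). Snord22, in the noncoding host gene Snhg1, ran from 2.71 to 4.53, from 2.07 to 4.82 and from 2.30 to 6.22 CPM, a difference of 0.16 (SE 0.25). Snord15b ran from 7.47 to 11.2, from 6.99 to 9.80 and from 7.33 to 13.7 CPM. In each of these 3 genes the highest value was that of PLCβ1b heart 4.

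That heart, which also had the highest Plcb1 level of all hearts (70.0 CPM), held the highest value of the 18 for 8 of the 25 members. Its median level over the 25 was 0.45 above its group's median on the log2 scale. Snord17 and Snord22 were the pair of members that varied most alike over the 18 hearts (r = 0.84, and 0.85 with group means removed). Scarna10 and Snora78 followed with 0.82, and over all 300 pairs the median r was 0.26. These correlations are a description, and the shared libraries and PLCβ1b heart 4 enter all of them.

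**Figure D5:**
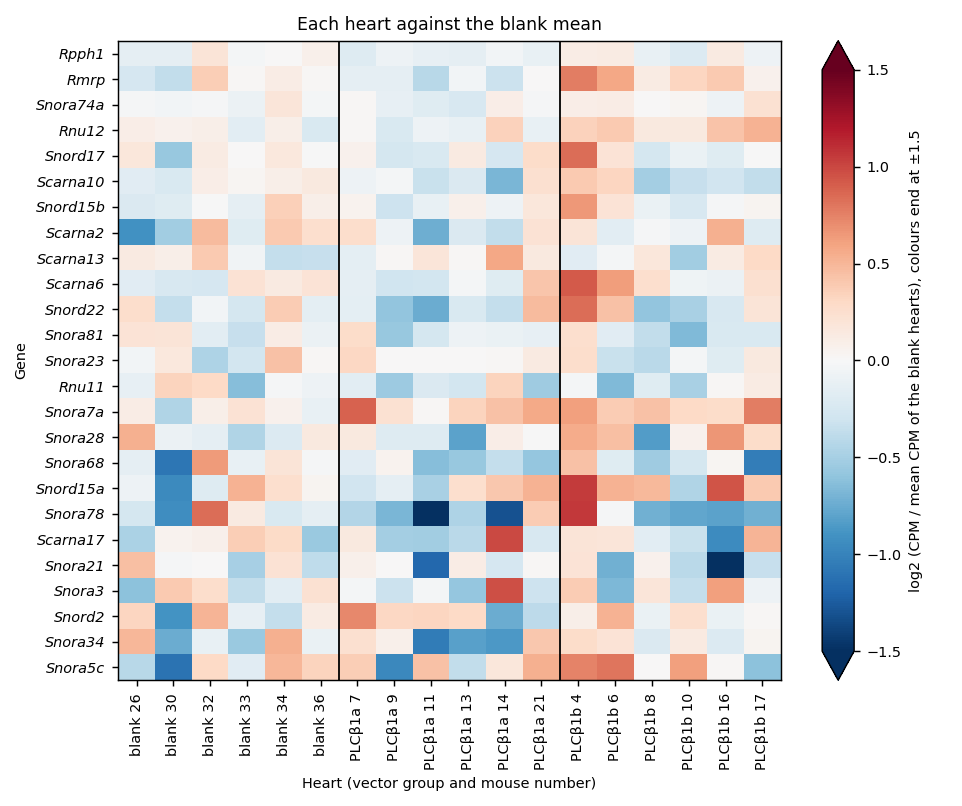
Log2 ratio of each heart's CPM to the mean CPM of the blank hearts for the 25 genes (rows, by mean count) and 18 hearts (columns, by group and mouse number), with red above and blue below the blank mean and colours ending at ±1.5. PLCβ1b heart 4 is above the blank mean in most rows, Rnu12 and Snora7a are above it in all 6 PLCβ1b hearts, and Snora7a also in all 6 PLCβ1a hearts.

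Most members lie inside another gene, and their counted levels showed little relation to its level. Of the 25 genes 19 sit in the span of a host gene on the same strand, 6 of these in ribosomal protein genes and 4 in noncoding Snhg genes, and 6 stand alone (Rpph1, Rmrp, Rnu12, Rnu11, Scarna2 and Scarna17). The members on their own include 4 of the 6 with the highest level per kilobase. For the 17 member and host pairs in which the host could be tested, the median Pearson's r of log2 CPM over 18 hearts was 0.09 and the range -0.28 to 0.57, as a description over hearts that share libraries. Counting error limits such an r for members with few counts. Snora34 varied by 31.2% over the hearts, where counting error alone would give 30.9%. Snord17, with more counts, varied by 23.1% against 6.73%, and its r with Snx5 was -0.09. Reads of unspliced host RNA that fall on a member were not separated. The highest r was that of Snora81 with Eif4a2, an RNA helicase of translation initiation, whose intron also holds Snord2 with an r of -0.20. No host was called in any of the 3 comparisons between groups, with host log2 fold changes of -0.20 to 0.07 in PLCβ1b against blank hearts.

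The protein genes that work with these RNAs, and the noncoding host genes, were counted in 7 lists. Of 77 genes tested, 0 were called in any comparison by edgeR's quasi-likelihood test or DESeq2, and 0 of 85 without a filter on low counts. At an unadjusted p under 0.05 there were 2 in PLCβ1b against blank, 4 in PLCβ1a against blank, 4 between PLCβ1b and PLCβ1a and 3 for both PLC groups against blank, where 7.41, 8.58, 4.42 and 9.25% of all genes were. DESeq2 gave 1, 3, 2 and 3, where 5.52, 6.93, 3 and 7.34% of all genes were in its fits.

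The RNase MRP and RNase P proteins were the list closest to Rmrp. Of its 10 genes tested, 2 had a fold change above 0 in PLCβ1b and 1 in PLCβ1a against blank hearts, with median log2 values of -0.16 and -0.09. Over all genes 49.6 and 49.4% were above 0. Rpp30, a subunit of both enzymes, was at a mean of 4.10 CPM in blank and 3.27 CPM in PLCβ1b hearts, so the log2 change was -0.32 (SE 0.13, FDR 0.592). Rpp38 and Rpp25l, other subunits, had -0.31 (SE 0.18) and -0.17 (SE 0.14). In PLCβ1b hearts Rmrp itself was above blank and 8 of these 10 genes below, none past the threshold. In PLCβ1a hearts Rmrp was below blank, at -0.17, as were most of these genes. Between PLCβ1b and PLCβ1a hearts Rmrp differed by 0.56. There 6 of the 10 genes were above 0, with a median of 0.03, where 50.5% of all genes were above. A relation between Rmrp and these genes was not tested.

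For the minor spliceosome, the home of Rnu12 and Rnu11, 11 protein genes were tested, of which 3 lay above 0 in PLCβ1b and 6 in PLCβ1a against blank hearts, with medians of -0.05 and 0.00. Sf3b1, shared with the major spliceosome, had a log2 difference of -0.09 (SE 0.04, FDR 1) between PLCβ1b and PLCβ1a hearts. Among 20 genes for snRNA transcription, export and the Sm ring, medians were -0.01 and -0.05, and Snapc2, a subunit of the complex that starts snRNA transcription, differed by 0.29 (SE 0.12, FDR 1) between PLCβ1b and PLCβ1a hearts.

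The box C/D proteins (11 genes) had medians of -0.02 in PLCβ1b and -0.01 in PLCβ1a against blank hearts, and the box H/ACA and telomerase proteins (10 genes) 0.04 and 0.01. Wrap53, which brings RNAs to Cajal bodies, had a log2 change of 0.27 with PLCβ1b (SE 0.13, FDR 0.672). The noncoding host genes (9 genes) had medians of -0.02 and 0.03. For the 7SK particle and P-TEFb (6 genes) they were -0.03 and 0.00, and Ccnt1, cyclin T1, differed by -0.19 between PLCβ1b and PLCβ1a hearts (SE 0.07, FDR 1).

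The deposited FPKM values gave a different picture of the short members, which bears on any use of them. The 102 members with a mean under 10 counts took 0.991% of member counts and 71.9% of member FPKM. Snord99, a gene of 56 nt with a mean of 1.83 counts, had a mean of 8668 FPKM with 10 of 18 hearts listed at 0, and Rpph1 with 11980 counts had 4362 FPKM. At the same time the 4 members of at most 71 nt with a mean of at least 10 counts (Scarna10, Scarna2, Scarna17 and Snord2) were listed at 0 FPKM in 70 of 72 values. The 19 members of 108 to 325 nt were at 0 in 2 of 342. Snord99 and these genes were picked after their values were seen, and limma on FPKM left out Scarna2, Scarna17 and Snord2.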

How the data were processed

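RNA was sequenced in 18 mouse hearts, 6 per vector group, from the labels. The labels give no batch, and the sample numbers in their titles run through the vector groups 1 after another. Group and sample-sheet order thus cannot be told apart. The authors aligned paired 76 nt strand-specific reads to mm10 with TopHat, counted them per gene with HTSeq in union mode, and deposited these raw counts together with FPKM values, for which the submitters' processing notes name Cufflinks 2.1. Reads that fit several genes are not assigned, which lowers members with copies. Counts of 12281 genes that passed filterByExpr (minimum count 10, minimum total 15) were scaled by TMM and tested in 1 model of the 3 groups with edgeR 4.0.16 (robust quasi-likelihood, R 4.3.3), and genes were called at an FDR below 0.1. All 25 members, and 3 with lower means, passed the filter. Exact permutation tests used 924 arrangements. Alternatives were DESeq2 1.42.0, edgeR's exact test, limma 3.58.1 on log2 FPKM (mean of at least 1, with 1 or 0.1 added), other scaling, filters and thresholds, and each heart left out. The test was checked on simulated data with larger fold changes than the members had, so the check does not measure its power for their changes.

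Named genes were Rmrp, Rnu12, all Rnu, Scarna, Rpph1 and Rmrp genes with a mean count of at least 10, the 3 Snora and 3 Snord genes with the highest counts, and the 3 lowest p values in each direction of each comparison. Members, lists and tests were chosen with earlier results of these data known. Host genes came from the deposited annotation. Sequences came from GENCODE M21.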

Additional observations from a re-analysis of the deposited data

Results flagged for a closer look

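In 8 of 75 groups of 6 hearts 1 heart stood apart from its group, with a gap to its neighbour, as a share of the group's range, above Dixon's critical value for 6 samples. Chance flags about 1 in 20 groups. PLCβ1b heart 4 was high for Snord17 (20.5 CPM, the next heart 13.3) and Snora78 (2.06, next 0.974). PLCβ1a heart 14 was high for Rnu11 (3.28, next 2.34), Scarna17 (1.44, next 0.806) and Snora3 (1.12, next 0.564). PLCβ1a heart 21 was high for Scarna6 (4.36, next 3.19). Blank heart 34 was high for Snora74a (55.3, next 48.2), and blank heart 30 was low for Snord17 (7.73, next 11.4).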

How the results depend on the processing

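No paired analysis was possible because the groups share no mouse numbers. In PLCβ1b against blank hearts 0 members were called, and 1 (Rnu12) was with no filter on low counts, only the compared groups, edgeR's exact test, DESeq2, or limma with 1 or 0.1 added to FPKM, and 0 to 1 over the fits without 1 heart. Between PLCβ1b and PLCβ1a hearts the count of 0 became 1 (Rnu12) with limma at either pseudocount and 0 to 1 without 1 heart. With the mitochondrial percent as a covariate, chosen after seeing the data as was estimation that is not robust, 1 member (Scarna6) was called in each of these comparisons, where the calls over all genes went from 12 to 42 and from 0 to 4. The log2 fold change of Rnu12 in PLCβ1a against blank hearts, -0.02, was 0.039 with that covariate and -0.089 to 0.021 without 1 heart, above 0 without blank heart 26, 32 or 34 or PLCβ1a heart 9. That of Snora21 between PLCβ1b and PLCβ1a hearts, -0.24, was 0.045 with the covariate. In PLCβ1a against blank hearts Snora68, at -0.32, was -1.91 with limma and 0.1 added to FPKM, where 5 of 18 hearts are listed at 0. The mean share of counts on the 127 genes, relative to blank, was 0.92 in PLCβ1a and 1.10 in PLCβ1b hearts. It was 0.775 and 0.796 as summed FPKM, and 1.24 in PLCβ1b hearts without Rpph1. The cause of these changes was not tested. Of 767 alternatives for 27 fold changes, 748 kept direction and side of the threshold, 13 passed it and 6 reversed. Of the 127 genes 102 had a mean under 10 counts and were not followed between groups.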
